A study of Mus musculus with 86 samples.

Results

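The Hox clusters are the 4 groups of neighbouring homeobox genes, Hoxa, Hoxb, Hoxc and Hoxd, and they are described here by the SOX2 and CTCF binding sites deposited for mouse embryonic stem cells. The 38 listed Hox genes were matched by symbol to RefSeq's gene table for GRCm38.p6 (mm10), and every interval of the 8 peak lists within 50 kb of a listed gene was taken. That gave 534 of the 327957 intervals in the lists, of which 132 lie at Hoxa, 175 at Hoxb, 109 at Hoxc and 118 at Hoxd. The genes were chosen by family and not by any value in these lists, though earlier results of these data were known.

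The cells are mouse embryonic stem cells of strain 129S5/SvEvBrd, which renew themselves and can form all tissues of the embryo, grown on gelatin with serum and leukemia inhibitory factor. Asynchronous cells were left untreated. Mitotic cells were held with nocodazole, a drug that blocks microtubule assembly, at 100 ng/ml for 6 h, and were then shaken off the dish. Binding was mapped by ChIP-seq, which sequences the DNA that an antibody pulls down with a protein, in 2 libraries per group for SOX2 (antibody AF2018) and for CTCF (antibody ab70303), and 8 of the 86 libraries of the series are used here. The labels do not say that replicates came from separate cultures, so p-values measure only the spread between these libraries, which may be technical. The lists hold binding sites and no expression values, so the cell type was not checked against marker genes.

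Hox genes encode homeodomain transcription factors that give cells their position along the head-to-tail axis. Within a cluster the genes stand in the order of their paralog numbers. Low-numbered genes are switched on early and towards the head (anterior) and high-numbered genes later and towards the tail (posterior), and in embryonic stem cells the clusters are mostly silent and covered by Polycomb proteins. CTCF is a zinc finger protein that stops the loop-extruding cohesin ring, and within Hox clusters it is known for sites that separate active from Polycomb-bound genes in motor neurons, among them one between Hoxa5 and Hoxa6. SOX2 is an HMG-box factor of the pluripotency network that often binds next to POU factors such as OCT4.

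Both sequences below are the 250 bases before a RefSeq gene start (GRCm38.p6, given 5′ to 3′ on the gene's strand). Of the Hox promoters with sequence at hand, only these overlapped a peak of the same factor in both mitotic libraries. A Hoxa10 promoter also overlaps a CTCF region called in both, but the peak of mitotic replicate 2 there lies outside the promoter. Capitals mark matches to the letters named with each. The Hoxb1 promoter, chr11:96365508-96365757 on the plus strand, has in capitals a SOX and POU composite (C, any base, TTGT, any base, ATGC, any base, AA) and, after it, a HOX and PBX composite (TGAT, any 2 bases, ATGG). The Hoxa5 promoter, chr6:52204588-52204837 on the minus strand, has in capitals a relaxed CTCF core (CC, any 4 bases, G, any 2 bases, GGC). These patterns were added after the data were seen, so the matches describe the promoters and are no test of binding.
Hoxb1: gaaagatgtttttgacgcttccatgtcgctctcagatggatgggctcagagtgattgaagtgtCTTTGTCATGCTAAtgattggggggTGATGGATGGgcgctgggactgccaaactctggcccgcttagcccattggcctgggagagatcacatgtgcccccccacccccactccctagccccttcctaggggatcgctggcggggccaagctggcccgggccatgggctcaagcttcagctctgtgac
Hoxa5: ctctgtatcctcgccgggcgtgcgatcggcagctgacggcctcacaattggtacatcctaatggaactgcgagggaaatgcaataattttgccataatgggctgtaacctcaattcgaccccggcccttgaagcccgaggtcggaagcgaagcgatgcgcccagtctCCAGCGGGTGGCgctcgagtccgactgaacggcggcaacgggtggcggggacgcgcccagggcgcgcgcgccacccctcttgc

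The match at Hoxb1, CTTTGTCATGCTAA, lies at chr11:96365571-96365584, and TGATGGATGG lies 3′ of it at chr11:96365596-96365605. The asynchronous SOX2 summits were 16 bp from the first match in replicate 1 and inside it in replicate 2, and the mitotic summits were 62 and 76 bp from it. At Hoxa5 the match CCAGCGGGTGGC lies at chr6:52204659-52204670, and the CTCF summits were 19 and 9 bp from it in the asynchronous libraries and 9 and 30 bp from it in the mitotic libraries. The Hoxb1 promoter element with SOX, OCT and HOX-PBX sites is known from the hindbrain, where Hoxb1 protein maintains its own gene in rhombomere 4.

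Over the clusters both factors had fewer peaks in the mitotic than in the asynchronous libraries, and the gap was wider for SOX2. CTCF had 69 and 73 peaks within 50 kb of the listed genes in asynchronous replicates 1 and 2, and 25 and 20 in mitotic replicates 1 and 2. The means were 71 ± 2.83 and 22.5 ± 3.54 peaks (SD, n = 2 libraries each), which is 3.16-fold fewer in mitosis. SOX2 had 219 and 125 peaks in the asynchronous libraries and 2 and 1 in the mitotic libraries. The means were 172 ± 66.5 and 1.5 ± 0.707 peaks (SD, n = 2 each), or 115-fold fewer in mitosis. The groups did not overlap for either factor, and the exact two-sided permutation test gave p = 0.333 for both, the smallest value that 2 against 2 libraries allow.

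**Figure D1:**
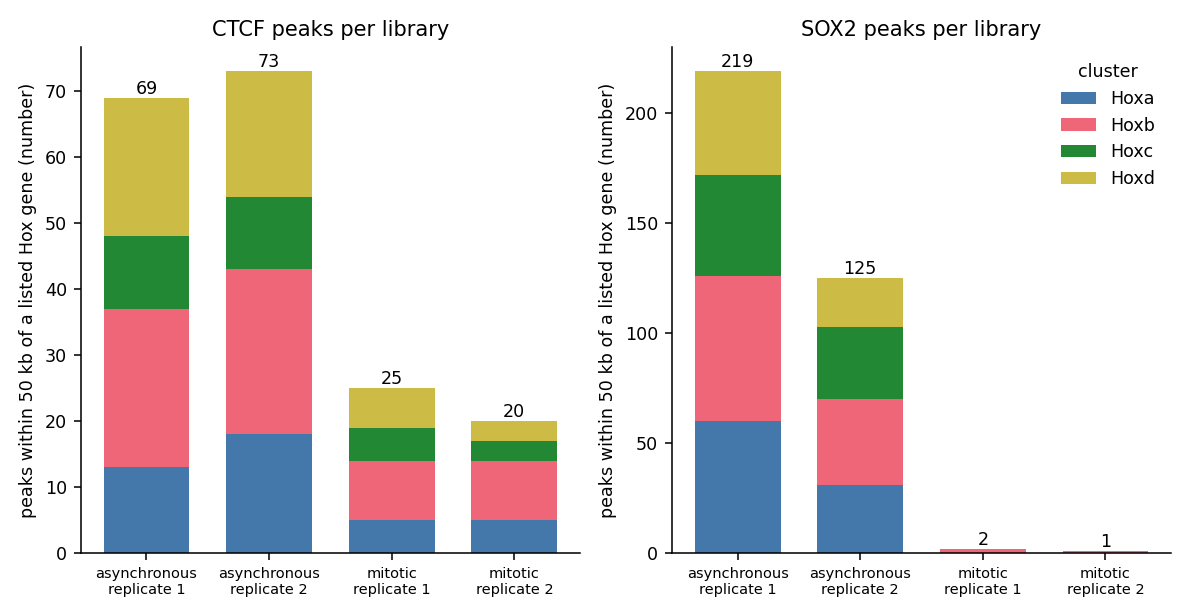
CTCF (left) and SOX2 (right) peaks within 50 kb of a listed Hox gene in each library, stacked by cluster, with the library's total above its bar; each bar is 1 library. Mitotic CTCF bars reach 25 and 20 peaks and come from all 4 clusters, while the mitotic SOX2 bars reach 2 and 1 and come from Hoxb alone.

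The depth of the libraries was estimated from the peak scores, which allow the coverage at a summit to be recovered. The background came to 3.36 and 3.71 reads per 100 bp in the asynchronous CTCF libraries and 3.62 and 3.77 in the mitotic ones. For SOX2 it was 2.48 and 1.61 in the asynchronous libraries and 2.62 and 1.64 in the mitotic ones. Replicate 1 was the deeper SOX2 library in both groups, and it also had more Hox peaks in both. The part of depth in the peak numbers was not tested. At the lowest background, the weakest mitotic peaks had 21 and 22 reads at the summit for CTCF and 18 and 15 for SOX2, so a site with fewer reads was not detectable at this depth. Over the genome the lists held 68328 and 67995 peaks for asynchronous CTCF, 20142 and 15338 for mitotic CTCF, 90266 and 63504 for asynchronous SOX2, and 1976 and 408 for mitotic SOX2.

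Within a list, the clusters were dense in sites of both factors. Between the first and the last listed gene the asynchronous CTCF lists had 4.02 and 4.21 times the peaks per kb of the genome, and the asynchronous SOX2 lists 11.1 and 9.01 times. The mitotic CTCF lists, with far fewer peaks in all, still had 6.13 and 6.22 times the genome's density there. Overlapping peaks of both asynchronous libraries were then merged, and a merged interval with a peak in each is called a region below. CTCF had 50 such regions within 50 kb of the listed genes, of 57992 in the genome, and SOX2 had 89 of 51672. Inside the clusters this made 7.22 CTCF regions and 14.8 SOX2 regions per 100 kb, against 2.13 and 1.90 in the genome. CTCF regions covered 6.52% of the bases inside and 1.45% of the genome, and SOX2 regions 16.2% and 1.52%.

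**Figure D2:**
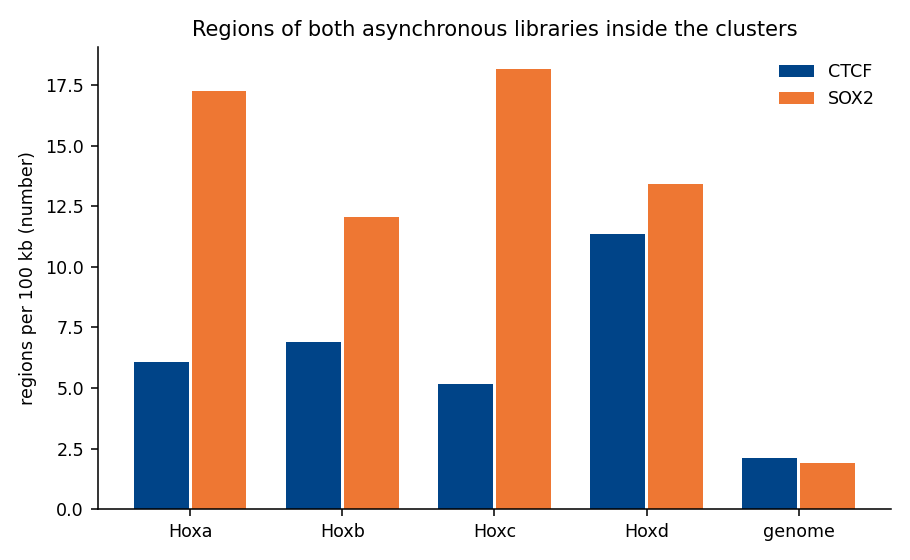
Regions found in both asynchronous libraries per 100 kb (vertical axis, a count per length) between the first and last listed gene of each cluster and over the genome, for CTCF and SOX2. Hoxd has the densest CTCF regions (11.3 per 100 kb) and Hoxc the densest SOX2 regions (18.1 per 100 kb), and every cluster lies above the genome for both factors. In each asynchronous list by itself, Hoxa has the most SOX2 peaks per 100 kb (48.7 and 24.4, against 32.8 and 23.3 in Hoxc).

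A smaller share of the Hox peaks than of all peaks was found in both asynchronous libraries. Of 88 merged CTCF intervals, 50 (56.8%) had a peak in each library, against 76.4% over the genome. Of 222 merged SOX2 intervals, 89 (40.1%) had one in each, against 53.4%, and 124 of the others came from replicate 1 alone and 9 from replicate 2 alone. The set of SOX2 regions was thus limited mainly by what the shallower replicate 2 held.

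The 4 clusters were not alike in how CTCF was laid out. Hoxd had 11 CTCF regions inside its 96.9 kb, or 11.3 per 100 kb, with a median gap of 3.36 kb between neighbours. Hoxa had 6 (6.09 per 100 kb, median gap 8.76 kb), Hoxb 12 (6.90 per 100 kb, 9.16 kb) and Hoxc 6 (5.18 per 100 kb, 16.0 kb), and the median gap over the genome was 14.3 kb. Counted from the end with the lowest-numbered listed genes, the first CTCF region stood 35.0 kb inside in Hoxa, 22.1 kb in Hoxb, 23.1 kb in Hoxc and 49.2 kb in Hoxd. At the other end the distance was 3.74 kb in Hoxa, 4.48 kb in Hoxb and 22.3 kb in Hoxc, and in Hoxd a region lay across Hoxd13 itself, so in Hoxc the 2 ends were alike. Wholly before the first CTCF region SOX2 had 5 regions in Hoxa, 4 in Hoxb, 2 in Hoxc and 6 in Hoxd. The layout counts only regions of both asynchronous libraries, and other peaks were left out. In Hoxa, CTCF peaks of both mitotic lists at Hoxa4 lie before the first region. An asynchronous CTCF peak that is not part of a region lies on their Hoxa2 side, 4411 bp from the peak of mitotic replicate 1. The layout was noticed after the values were seen and was not tested.

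Of the 50 CTCF regions, 22 (44%) were called in mitotic replicate 1 and 19 (38%) in mitotic replicate 2, a mean of 41% ± 4.24 (SD, n = 2). Over all CTCF regions of the genome the shares called were 33% and 25.4%. In both mitotic libraries 18 regions were called (36%, exact binomial 95% interval 22.9% to 50.8%, which covers counting error only), where the share over the genome was 24.5%. A further 5 regions were called in 1 mitotic library, and 27 in neither, beside 66% of all regions called in neither. The interval of the Hox share holds the genome's share, at its lower end.

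Strength in asynchronous cells went along with that share. Strength is the percentile of a region's fold enrichment within each asynchronous list, averaged over both lists. The median was 71.4 for Hox CTCF regions and 57.7 for all CTCF regions, and 11 of 50 Hox regions (22%) had a strength of 90 or more, against 8.90% of all regions. Before merging, the Hox peaks had no higher median fold than the whole asynchronous lists (5.62 and 4.72 against 5.63 and 5.41). A smaller share of Hox than of all CTCF intervals was in both libraries (56.8% against 76.4%). The part of this filter in the strengths was not tested. When the percentiles were split into 10 equal classes and each Hox region was given the share of its class outside the clusters, 17.9 regions (35.9%) would be called in both mitotic libraries, where 18 were. Regions called in both had strengths of 64.3 to 99.1 (median 89.4), and those called in neither 9.50 to 90.6 (median 46.9). At a fold of at least 5 in all lists the Hox share was 17.6% (6 of 34 regions) and lay beside 17.8% for the genome. Counting peaks of either asynchronous library as regions gave 20.5% (18 of 88) beside 18.8%.

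**Figure D3:**
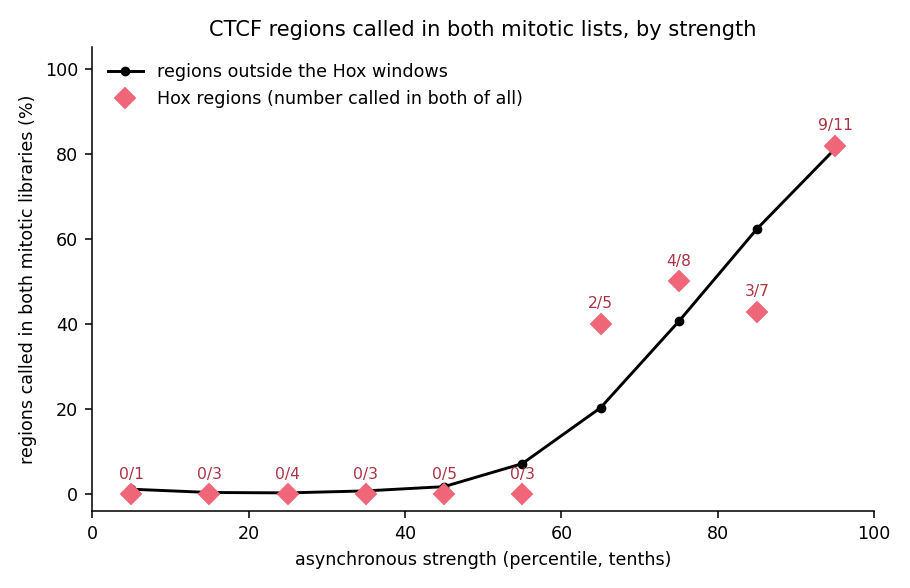
Share of CTCF regions with a peak in both mitotic lists (vertical axis, %) by strength in asynchronous cells (horizontal axis, 10 equal classes of the percentile); the black line is all regions outside the Hox windows, diamonds are the Hox regions with the number called of the number present. No Hox region below the 60th percentile was called in both libraries, and 9 of the 11 in the highest class were.

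Fold enrichments given below are the authors', each relative to the background of its own library, so values of the asynchronous and mitotic lists stand side by side and are not a measured change. In Hoxa both mitotic lists held 4 of the 9 CTCF regions, and neither held the other 5. The strongest, chr6:52204073-52205186, spans the Hoxa5 promoter printed above and the interval to Hoxa6. Its folds were 19.2 and 21.4 in asynchronous replicates 1 and 2 (210 and 201 reads at the summit) and 7.95 and 6.81 in mitotic replicates 1 and 2 (67 and 59 reads). It was the strongest of all 50 Hox CTCF regions, at the 99.1 percentile, and its mitotic peaks stood at the 79.3 and 82.0 percentiles of their lists. The next site, between Hoxa6 and Hoxa7 at chr6:52211257-52212350, had folds of 6.97 and 11.6 in the asynchronous lists and 3.66 and 3.63 in the mitotic lists. A further one lies between Hoxa7 and Hoxa9, chr6:52221110-52222407, with 11.7 and 12.6 asynchronous and 3.80 and 4.77 mitotic. The fourth overlaps Hoxa10, chr6:52240042-52241031, with 10.9 and 15.0 asynchronous and 5.92 and 4.59 mitotic. These 4 follow one another without an uncalled region between them, from Hoxa5, a regulator of the cervical and upper thoracic skeleton, to Hoxa10, which acts in the lumbar region and the uterus. The region between Hoxa11 and Hoxa13, chr6:52256660-52257482, had folds of 6.49 and 10.6 and was called in neither mitotic library.

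Hoxb had 19 CTCF regions, 8 of them called in both mitotic libraries and 2 in 1. Hoxb5, like Hoxa5 a gene of the lower neck and thorax, carried the strongest at chr11:96302756-96303679, with folds of 15.3 and 12.9 asynchronous and 5.61 and 6.34 mitotic. The site in Hoxb8, chr11:96278370-96279609, had folds of 10.0 and 7.16 asynchronous and 6.15 and 4.65 mitotic. Between these, the Hoxb6 site at chr11:96294156-96295759 was the strongest Hox region called in neither mitotic library. Its folds were 13.0 and 11.4 (112 and 114 reads), at the 90.6 percentile of strength, close to that of the Hoxa7 to Hoxa9 site. The site in the Hoxb3 body between Hoxb4 and Hoxb5, chr11:96311352-96312326, with folds of 8.27 and 12.4, was also called in neither. Of the 6 regions in the long interval between Hoxb9 and Hoxb13, which holds no other listed gene, 4 were called in both mitotic libraries. Their asynchronous folds ran from 6.94 to 13.0 in replicate 1 and from 7.70 to 12.4 in replicate 2, and their mitotic folds from 3.94 to 5.12 and from 2.89 to 6.02.

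Hoxc had the fewest CTCF regions, 7, with 3 called in both mitotic libraries and 1 in 1. Hoxc10, a gene of hindlimb-level motor neurons, held the strongest at chr15:102966122-102967446, with folds of 17.2 and 17.7 asynchronous and 5.66 and 4.67 mitotic. The Hoxc5 site, chr15:103013206-103014586, had folds of 17.5 and 15.0 asynchronous and 5.73 and 4.54 mitotic. The site between Hoxc8 and Hoxc9, chr15:102987124-102988046, had lower asynchronous folds, 8.02 and 8.72, and mitotic folds of 6.99 and 5.79. Of these 3, the Hoxc8 to Hoxc9 site had the lowest fold in both asynchronous lists and the highest in both mitotic lists. The remaining 4 Hoxc regions had asynchronous folds below 5 in each list.

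Hoxd had 15 CTCF regions and the lowest share called in both mitotic libraries, 3 of 15 (20%, exact binomial 95% interval 4.33% to 48.1%), with 2 called in 1. The shares of the other clusters were 44.4% for Hoxa (13.7% to 78.8%), 42.1% for Hoxb (20.3% to 66.5%) and 42.9% for Hoxc (9.90% to 81.6%). All 4 intervals overlap widely, so no difference between clusters was resolved at these numbers. From these strength classes alone 4.96 regions would be called in Hoxd, 3.36 in Hoxa, 7.56 in Hoxb and 2.05 in Hoxc. The Hoxd share was 33.3% when mitotic replicate 2 was left out and the remaining library decided the call. With asynchronous replicate 1 left out, so that all peaks of replicate 2 counted as regions, the shares were 22.2% for Hoxa and 27.3% for Hoxc, and Hoxc had the same value without asynchronous replicate 2.

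Hoxd3 carried a CTCF site at chr2:74715439-74716622 with folds of 12.8 and 14.8 asynchronous and 3.64 and 3.04 mitotic. The site between Hoxd8 and Hoxd9, chr2:74701970-74702963, had folds of 11.9 and 8.39 asynchronous and 9.11 and 5.88 mitotic. It lies at the edge of a dense row of 9 posterior regions from there to Hoxd13, and among them it alone was called in both mitotic libraries. The row holds strong asynchronous sites too. The one across the border of Hoxd10 and Hoxd11, chr2:74686125-74687200, had a fold of 11 in both asynchronous lists and was called in neither mitotic library. The one between Hoxd12 and Hoxd13, chr2:74672610-74673558, had folds of 14.1 and 13.7 and was called in mitotic replicate 1 alone, with a fold of 3.04 from 25 reads. Hoxd10 to Hoxd13 pattern the limbs and the genital bud.

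Beyond Hoxd13, a CTCF site over Evx2, the homeobox gene that ends the cluster, had the highest mitotic folds at any Hox cluster. At chr2:74654826-74656539 the folds were 14.6 and 17.4 in the asynchronous lists (279 and 239 reads) and 15.1 and 7.16 in the mitotic lists (158 and 112 reads). Its mitotic peaks stood at the 98.5 and 85.0 percentiles of their lists, and the replicates differed, with replicate 1 above replicate 2.

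**Figure D4:**
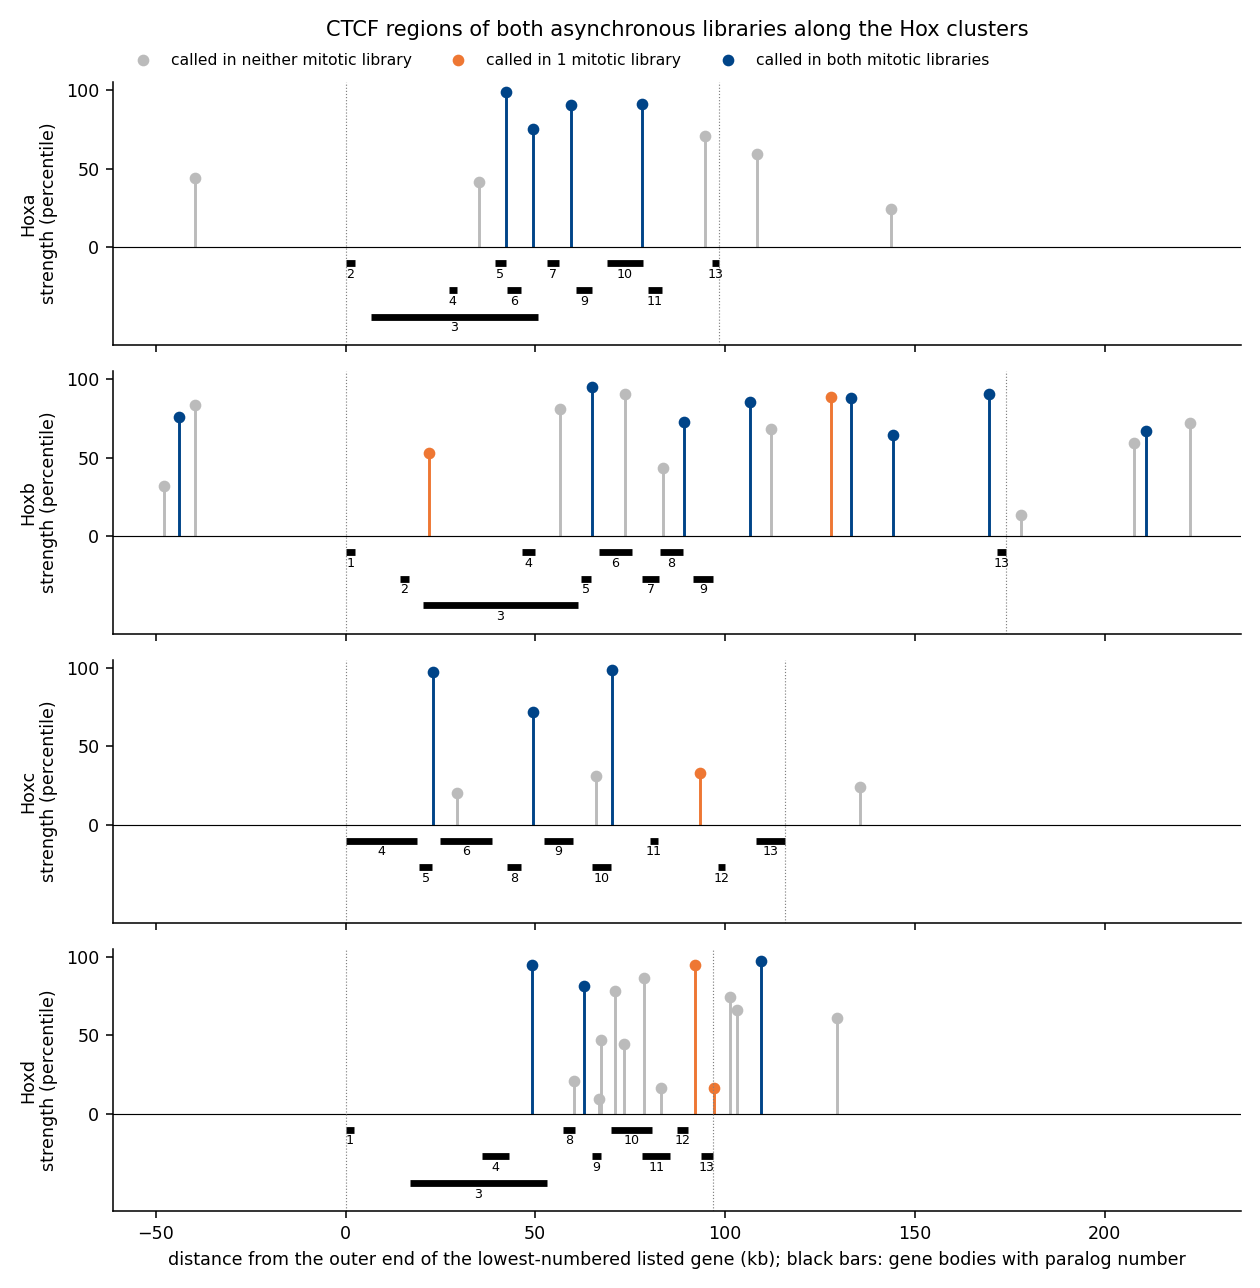
CTCF regions of both asynchronous libraries along each cluster; horizontal axis, kb from the outer end of the lowest-numbered listed gene (dotted lines, ends of the cluster); vertical axis, strength percentile; black bars below, gene bodies with their paralog numbers. Blue regions (18) were called in both mitotic libraries, orange (5) in 1 and grey (27) in neither. The first region inside stands 22.1 to 49.2 kb from that end, and peaks outside these regions are not drawn.

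By position, the CTCF regions that both mitotic lists held numbered 15 of 35 inside the clusters (42.9%, interval 26.3% to 60.6%) and 3 of 15 in the flanks (20%, interval 4.33% to 48.1%). The median strengths were 75.1 inside and 60.9 in the flanks, and the intervals overlap. Each inside region was given to its nearest listed gene, in classes of anterior (paralogs 1 to 4), central (5 to 8) and posterior (9 to 13) genes. The anterior class had 6 CTCF regions, 3 of them called in both mitotic libraries, the central class 8 with 4, and the posterior class 21 with 8. Hoxa3, Hoxb3 and Hoxd3 have RefSeq bodies over 20 kb that reach across their neighbours. Without these bodies, a count added after the data were seen, the classes held 2, 12 and 21 regions, of which 1, 6 and 8 were called in both. The posterior count was the largest either way, and the anterior count depended on these gene bodies. The classes differ in genes and length, and the counts are not corrected for that. The posterior class includes the long interval between Hoxb9 and Hoxb13, with 6 of its regions.

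The 5 CTCF regions called in 1 mitotic library alone were picked out after their values were seen. Those called in replicate 1 alone were the Hoxd12 to Hoxd13 site, a site on Hoxd13, one between Hoxb9 and Hoxb13 at chr11:96240102-96240732 and one between Hoxc11 and Hoxc12 at chr15:102943230-102943654. The one called in replicate 2 alone was in Hoxb3, between Hoxb2 and Hoxb4, at chr11:96345609-96346467. Mitotic folds at these 5 lay between 2.92 and 3.74, from 24 to 31 reads, close to the fewest reads with which a peak was called.

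By gene, 17 of the 38 listed Hox genes had a CTCF region over the gene body and 9 had one called in both mitotic libraries. These are 44.7% and 23.7% of the Hox genes, beside 56.5% and 23.1% of 21883 protein-coding genes counted the same way. Hox genes are short, with a median body of 3.72 kb against 17.2 kb, and the counts are not corrected for length. The 9 are Hoxa3, Hoxa5, Hoxa6, Hoxa10, Hoxb5, Hoxb8, Hoxc5, Hoxc10 and Hoxd3, and the Hoxa3, Hoxa5 and Hoxa6 entries share the one region at the Hoxa5 promoter. Hoxa3 and Hoxd10 had the most CTCF regions over the body, 3 each, and in Hoxd10 none of them was called in both mitotic libraries. The 21 genes without a CTCF region include every listed paralog 1, 2, 4, 7 and 12.

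Almost no SOX2 region at Hox genes was called in mitosis. Of 89 regions, 2 (2.25%) were called in mitotic replicate 1 and 1 (1.12%) in replicate 2, a mean of 1.69% ± 0.795 (SD, n = 2), where 3.37% and 0.755% of all SOX2 regions were called. In both libraries 1 region was called (1.12%, exact binomial 95% interval 0.0284% to 6.10%), against 0.675% of all regions, and 87 were called in neither, beside 96.6% of all regions. The interval holds the genome's share. Hoxa had 0 of 22 regions called in both, Hoxc 0 of 25 and Hoxd 0 of 16. At a floor of 3 counts these allow shares of up to 13.6%, 12% and 18.8%, and the exact binomial upper limits are 15.4%, 13.7% and 20.6%. The mean share was 39.3 percentage points higher for CTCF than for SOX2 over the same windows, and the exact two-sided permutation test gave p = 0.333, the smallest that 2 against 2 libraries allow.

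The SOX2 region called in both mitotic libraries overlaps the start of Hoxb1 and holds the promoter printed above, chr11:96364988-96366416. Its folds were 16.3 and 13.8 in the asynchronous lists (122 and 78 reads) and 4.79 and 4.33 in the mitotic lists (30 and 16 reads). The mitotic peaks are at chr11:96365453-96365830 in replicate 1 and chr11:96365391-96365596 in replicate 2, both over the promoter. With 16 reads the peak in replicate 2 was close to the fewest, 15, with which a SOX2 peak was called there. It ranked second in strength of the 89 Hox SOX2 regions, at the 94.9 percentile, and it does not overlap a CTCF region. The other mitotic SOX2 peak lies between Hoxb9 and Hoxb13, in the region chr11:96250501-96252860, and was called in replicate 1 alone with a fold of 3.19 from 21 reads.

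The strongest SOX2 region of the clusters lies between Hoxd12 and Hoxd13, chr2:74672147-74673351, and was called in neither mitotic library. Its folds were 20.9 and 15.8 (140 and 71 reads), at the 96.8 percentile, and it overlaps the CTCF site there that was called in mitotic replicate 1 alone. Both SOX2 summits are at 74672682, and the CTCF summits at 74673167 and 74673164. Next to Hoxb13, a gene of the tail and the prostate, SOX2 regions at chr11:96202389-96204540 (folds 15.3 and 10.4) and chr11:96189517-96191073 (20.2 and 9.01) were called in neither mitotic library. At the other end of Hoxb, a region beyond Hoxb1 at chr11:96374188-96375524 had folds of 14.3 and 8.38. In Hoxc the strongest was in the flank beyond Hoxc13, chr15:102872651-102873204, with 14.9 and 9.37. In Hoxa the strongest lay at the end of Hoxa3, chr6:52168337-52169150, with 9.02 and 6.92. None of the latter 3 was called in a mitotic library.

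SOX2 regions at Hox genes were many and wide, and mostly weak. Their median folds were 4.61 and 4.19 in the asynchronous lists, against 5.28 and 4.89 for all SOX2 regions, and their median strength was 48.2 against 61.3. Their median width was 889 bp against 658 bp. Hox CTCF regions were wide too, 889 bp against 608 bp for all CTCF regions. Before merging, Hox SOX2 peaks had median widths of 469 and 401 bp, against 435 and 408 bp in the whole asynchronous lists. The share with a strength of 90 or more was 5.62% (5 of 89), against 13.3% of all SOX2 regions. CTCF regions went the other way in strength, with 22% of those at Hox genes and 8.90% of all at 90 or more. The unmerged Hox CTCF peaks of each asynchronous list had no higher median fold than the whole list, as given above. Over the genome, 3.38% of SOX2 regions of a strength of 90 or more were called in both mitotic libraries, and 1 of the 5 Hox regions was.

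Counted in regions of both asynchronous libraries, Hoxc held the densest SOX2 stretch. Of its merged SOX2 intervals 53.2% had a peak in each library, against 34.9% in Hoxa, where each list by itself had more peaks per 100 kb. In the 100 kb tile chr15:102900001-103000000, which runs from beyond Hoxc13 past Hoxc8 into Hoxc6, there were 17 SOX2 regions, and 99.9% of 27230 tiles of the genome had fewer. The other tiles over the clusters had 6 to 12 SOX2 regions, beside a mean of 1.90 per tile. Of the 25 Hoxc SOX2 regions, 15 lay inside the cluster and nearest to the posterior genes Hoxc9 to Hoxc13, of which 5 were nearest to Hoxc12 and 3 to Hoxc13. In all clusters the posterior class had 33 SOX2 regions, the anterior class 26 and the central class 13, not corrected for the unequal size of the classes. The median strengths of these regions were 59.7, 43.7 and 34.7 in that order. Without the gene bodies over 20 kb, a count added after the data were seen, the posterior, anterior and central classes held 33, 22 and 17 SOX2 regions.

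**Figure D5:**
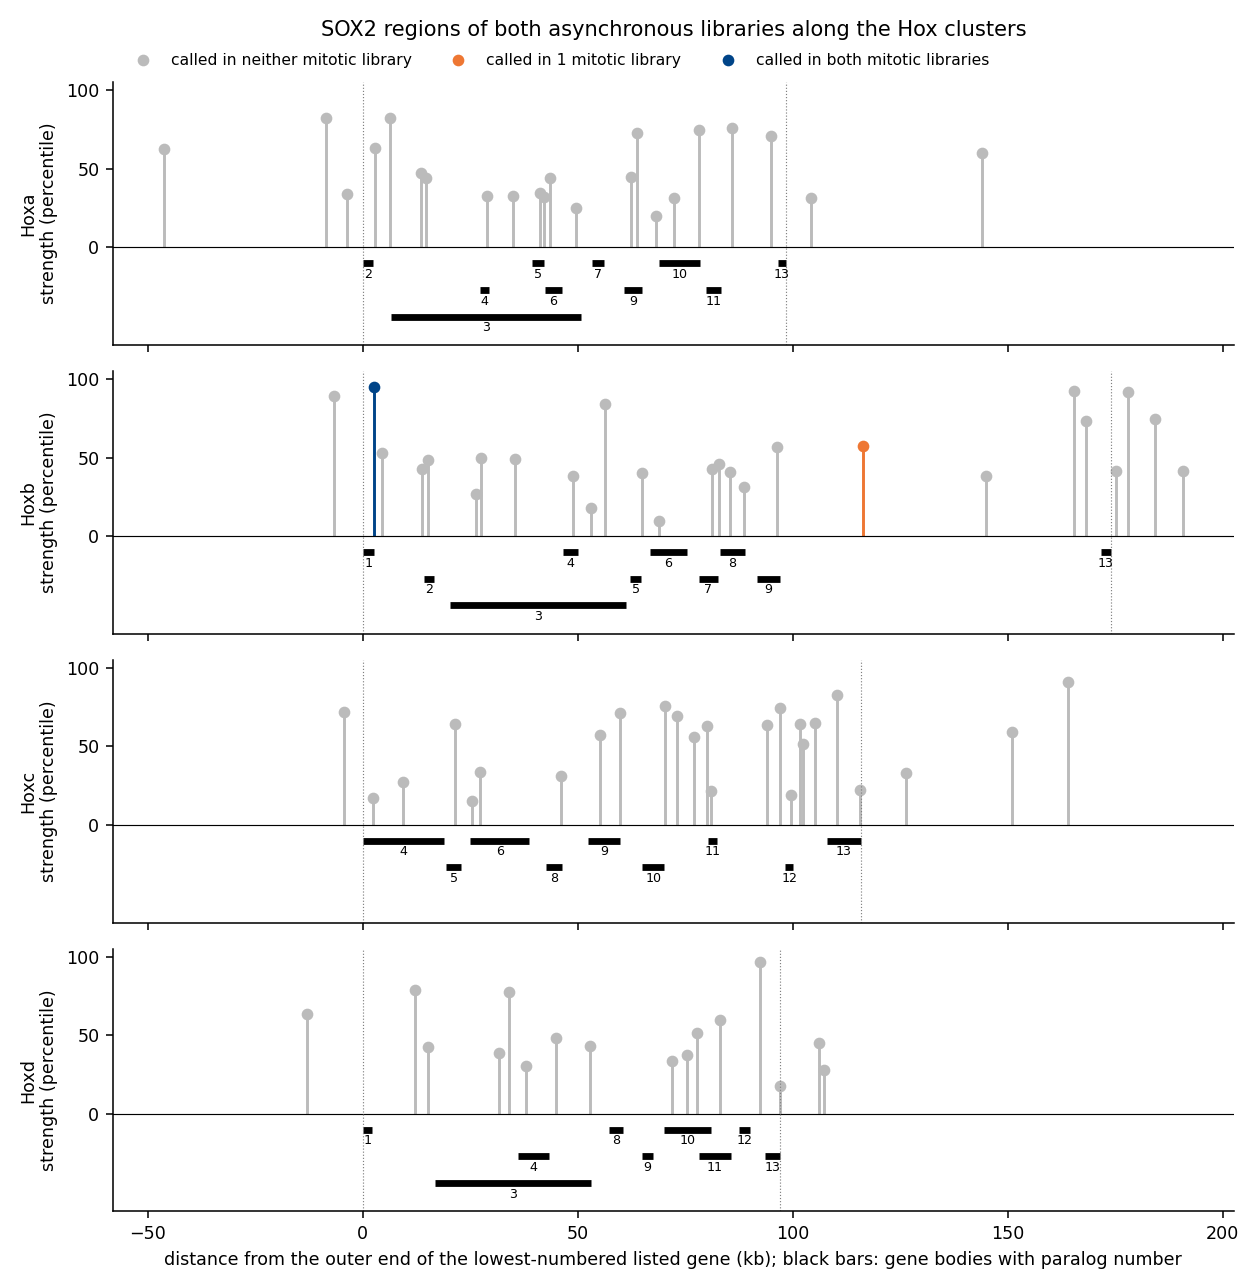
SOX2 regions of both asynchronous libraries along each cluster, with the axes, gene bodies and colours of the CTCF map. The region called in both mitotic libraries (blue) is at Hoxb1 and the one called in 1 (orange) lies between Hoxb9 and Hoxb13, and the other 87 are grey.

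By gene, 30 of the 38 listed Hox genes had a SOX2 region over the body (78.9%), beside 52.9% of all protein-coding genes, which are longer. One called in both mitotic libraries lay over 1 Hox gene (2.63%), Hoxb1, beside 1.15% of all protein-coding genes. The 8 without were Hoxa7, Hoxa11, Hoxa13, Hoxb13, Hoxd1, Hoxd8, Hoxd9 and Hoxd12. Hoxd8 and Hoxd9 did have CTCF regions over their bodies, 1 and 2. Hoxb1, by contrast, had SOX2 and no CTCF region.

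SOX2 and CTCF regions overlapped each other at 18 places per factor, which is 36% of the CTCF regions and 20.2% of the SOX2 regions at Hox genes. Over the genome the shares were 18.3% of CTCF regions and 20.3% of SOX2 regions. SOX2 regions covered 16.2% of the bases inside the clusters, with the most in Hoxa (18.1%), and 1.52% of the genome. The overlap shares are not corrected for this coverage. Hoxa had the most overlap of the factors, 6 of its 9 CTCF regions, and the counts were 5 of 19 in Hoxb, 3 of 7 in Hoxc and 4 of 15 in Hoxd. At these places CTCF was called in both mitotic libraries 7 times, in 1 library 3 times and in neither 8 times. Of all 50 Hox CTCF regions, 18 (36%) were called in both. SOX2 was called in no mitotic library at any of these 18 places, but neither was it at 87 of all 89 Hox SOX2 regions. Both counts thus lie near those of the Hox regions at large, and the genome's shares for overlapping regions were not computed.

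Promoter sequence was at hand for 22 of the 38 genes, in 24 windows of 300 bases (250 before the RefSeq start and 50 after it). A CTCF region overlapped 7 of the 24 (29.2%), against 14.9% of 32817 windows of all genes, and a SOX2 region 10 (41.7%) against 24.9%. The median number of CpG dinucleotides was 14.5 per Hox window and 7 per window of all genes. The CTCF core (CC, any 3 bases, AG, any 2 bases, GGC), searched on both strands, matched in 4 Hox windows (16.7%) and in 8.61% of all windows. The relaxed core, which contains every match of the former and was added after the data were seen, matched in 10 (41.7%) and in 25.3%. It leaves free the base at which the Hoxa5 promoter misses the core, so its match there is no test of CTCF binding. The SOX motif CATTGT, on both strands, matched in no Hox window and in 12.6% of all windows.

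The composite printed for Hoxb1 is rare. The SOX and POU composite, also added after the data were seen and searched on both strands, matched in 7 of the 32817 windows, 1 of which is Hoxb1. It leaves free the base at which Hoxb1 departs from CATTGT, so its match there is no test of SOX2 binding. A SOX2 region overlapped 6 of the 7 windows, and 2 of the 7 had a SOX2 peak in both mitotic libraries. Over all windows 0.293% had one. The HOX and PBX composite, added and searched likewise, matched in 0.716% of all windows and in 1 Hox window, again Hoxb1. Of the 4 Hox windows with the CTCF core, 1 (Hoxd11) overlapped a CTCF region and 3 (Hoxa11, Hoxc4 and Hoxd3) did not. The Hoxa11 promoter is one of the latter, chr6:52245811-52246060 on the minus strand, shown here with the core in capitals.
Hoxa11: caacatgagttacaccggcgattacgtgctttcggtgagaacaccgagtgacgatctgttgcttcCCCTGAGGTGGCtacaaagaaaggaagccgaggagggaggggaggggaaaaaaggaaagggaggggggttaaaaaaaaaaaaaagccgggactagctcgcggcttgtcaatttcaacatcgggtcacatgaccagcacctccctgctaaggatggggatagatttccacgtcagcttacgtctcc

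Other genes of the same loci were counted as well, without correction for length. Of the 9 non-coding genes looked up, Haglr had 2 SOX2 regions over its body and Hotairm1 and Hottip 1 each, and none had a CTCF region. Hotair, which lies between Hoxc11 and Hoxc12, and the microRNA genes Mir10a, Mir10b, Mir196a-1, Mir196a-2 and Mir196b had no region of either factor. These microRNAs are known to target Hox transcripts. Their genes are very short and CTCF regions covered 6.52% of the bases inside the clusters, so the lack of a region there says little. No share over all non-coding genes was computed. Evx2 had 2 CTCF regions, 1 of them called in both mitotic libraries as given above, and 2 SOX2 regions called in neither. Ttll6, a tubulin-modifying enzyme gene next to Hoxb13 that reaches beyond the 50 kb, had 6 CTCF regions, of which 3 were called in both mitotic libraries.

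CTCF peaks with no asynchronous counterpart made up a larger share of the mitotic Hox peaks than of the whole mitotic lists. Of the 25 Hox peaks of mitotic replicate 1, 3 (12%) had no asynchronous CTCF peak in either library, against 0.914% of that list, and of the 20 of replicate 2, 1 (5%) had none, against 0.287%. They make 3 places, picked out after their values were seen. At Hoxa4 both mitotic libraries had a peak, chr6:52191243-52191470 and chr6:52191436-52191642, with folds of 2.91 and 2.95 from 25 reads each. The nearest asynchronous CTCF peak was 4411 bp from the first of these and 4604 bp from the other. It is 1 of 17 places in the genome with a CTCF peak in both mitotic lists and no asynchronous one. At Hoxc12, chr15:102936946-102937205, the fold was 2.33 in replicate 1 alone, and the nearest asynchronous peak was 4237 bp away. At Hoxd11, chr2:74682345-74682666, the fold was 3.04 in replicate 1 alone, and an asynchronous CTCF peak ended 11 bp away, so this place is adjacent to a known site. All 3 places overlap an asynchronous SOX2 region, but at Hoxc12 and Hoxd11 only at its edge (SOX2 regions chr15:102937136-102937683 and chr2:74681172-74682352). SOX2 regions covered 16.2% of the bases inside the clusters. No mitotic SOX2 peak was called at any of the 3 places, and 87 of the 89 Hox SOX2 regions had none. With 4 peaks near the fewest reads of a call, the count is small.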

How the data were processed

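SOX2 and CTCF ChIP-seq peak lists of asynchronous and mitotic cells were used, 2 libraries per group, grouped by title and treatment. The submitters' processing notes name mm10 and the tools MACS2 2.1.1.20160309, BWA 0.7.17, CASAVA 1.4 and SAMtools. Options and any control library were not given in the sources used here. For every library the authors deposited 1 list, with a fold (a ratio to local background), a −log10 p and −log10 q, a score, and the summit offset of each peak. The lowest deposited −log10 q was 1.31 to 1.48, so the lists hold calls at about a q of 0.05.

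Peaks within 50 kb of a listed gene were taken, asynchronous lists merged, and a region counted as called with 1 bp of overlap. Summit coverage was solved from fold and −log10 p under a Poisson model; 97.8% to 100% of up to 2000 peaks per library came out whole within 0.002 reads. Peak numbers were compared by exact permutation tests, and intervals are exact binomial at 95% confidence, for counting error only. For each cluster the regions named were the strongest of those with a peak in both mitotic lists, and of those with none, inside and in the flanks, and for SOX2 the 4 strongest and any with a mitotic peak. Python 3.11.15, pandas 2.3.3 and SciPy 1.17.1 were used, and the overlap code was tested on simulated data against bedtools 2.31.1. Promoter sequences are RefSeq's (GRCm38.p6). The members and lists were chosen with earlier results of these data known. Alternatives changed the peak thresholds, distance, overlap rule, list length and libraries. The other libraries of the series were not analysed here.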

Additional observations from a re-analysis of the deposited data

How the results depend on the processing

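Peak numbers kept their direction under every alternative run, and no alternative could pass the threshold, since 2 against 2 libraries cannot give an exact p below 0.333. Mitotic CTCF peaks numbered 0.317 of the asynchronous ones, with 0.254 at a fold of at least 5, 0.39 inside the clusters alone and 0.282 to 0.352 without 1 library. For SOX2 the ratio was 0.00872, and 0.00581 to 0.012 without 1 library. The mean share of CTCF regions called in mitosis (41%) was 26.5% at a fold of at least 5, 50% inside the clusters and 29.7% with the replicate block, in which libraries of 1 number were compared with each other; with regions of either asynchronous library it was 23.3%, and it was 27.4% to 44% without 1 library. The share called in both mitotic libraries (36%) was 17.6% at a fold of at least 5, 20.5% with regions of either asynchronous library, and 24.7% to 44% without 1 library. For Hoxb alone it was 12.5% at a fold of at least 5. Without 1 library the shares ran from 22.2% to 44.4% for Hoxa, 32% to 47.4% for Hoxb, 27.3% to 57.1% for Hoxc and 14.3% to 33.3% for Hoxd. The mean SOX2 share (1.69%) was 0.862% at a −log10 q of at least 5, 0% at a fold of at least 5, 0.676% with regions of either asynchronous library, 0.857% with the replicate block, 0.562% with mitotic lists of equal length, and 0.685% to 2.25% without 1 library. It rests on 3 peaks, and leaving out asynchronous SOX2 replicate 2 gave the lowest value of the settings without 1 library. The gap between CTCF and SOX2 ran from 25.7 to 42.3 percentage points without 1 library. The cause of these moves was not tested. Same-numbered libraries did not deviate together (correlation 0.00229 over 14210 CTCF regions and 0.0125 over 349 SOX2 regions), so the numbers were not taken as pairs. The block left the CTCF share called in both mitotic libraries at 36% and moved the mean shares of both factors as given above. For these means it counts every peak of 1 asynchronous library in place of regions of both, so its base differs from that of the main setting.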
